A study of Schizosaccharomyces pombe with 80 samples.

Results

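The regions described here are the short H3K9me2 peaks of euchromatin: peaks listed at under 1000 bp that lie outside the 3 centromeres, the mating-type region, the outer 100 kb of each arm of chromosomes I and II and the outer 50 kb of each arm of chromosome III. Of 7203 peaks in 75 lists, one list per library, 2945 (40.9%) met this rule, and they made up 84.8% of all euchromatic peaks. Another 526 euchromatic peaks were 1 kb or longer. The peaks were chosen by their listed length, their position and the presence of a listed peak, so these are given only as description: the short peaks spanned 51 to 999 bp with a median of 349 bp, and the shortest euchromatic peak left out was 1000 bp long. There was no gap at this limit, with 95 peaks in the 50 bp below it and 88 in the 50 bp from it upwards.

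The series asked whether slowed transcription elongation can start heterochromatin in fission yeast, and profiled dimethylation of histone H3 at lysine 9 in strain isolates, their parents and whole-cell input DNA. All isolates and their parents lacked epe1, whose product removes the mark, and were grown at 30 °C. The epe1 tfs1DN group (n = 13) carried a dominant-negative TFIIS (tfs1DN) under an nmt1 promoter that the study kept repressed, but leaky, with thiamine, and the epe1 vector group (n = 15) carried the pDUAL-nmt1 vector alone. The epe1 ago1 tfs1DN group (n = 12, in 3 sets) also lacked the Argonaute gene ago1, and the seb1-1 epe1 tfs1DN group (n = 15) carried the seb1-1 allele of the transcription termination factor gene seb1. There were 7 parent and 9 input libraries, and 2 libraries each of pfs2-11, an allele of a 3′ end processing gene, and of pfs2 wild type, all 4 at 37 °C and with no epe1 deletion in their labels. Isolates 1 and 13 of epe1 tfs1DN shared one parent and input (first batch), and isolates 2 to 12 another pair (second batch). Every group had batches of its own, so strain and batch cannot be told apart. The isolates were separate strain isolates per the study, and where they derive from one culture the p-values cover only the spread between libraries.

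H3K9me2 is the hallmark of heterochromatin in Schizosaccharomyces pombe, where the single methyltransferase Clr4 deposits it over centromeres, telomeres and the mating-type region, and HP1 proteins such as Swi6 bind it. In euchromatin the mark is known from small islands, many of them at meiotic genes whose RNA is eliminated in growing cells. Epe1 limits the spread of the mark beyond such sites.

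The stretches on which the recurrent peaks lay are shown first, because the groups differed in the kind of sequence that recurred. Each is the part of the locus with the most overlapping peaks, at most 300 bases, 5′ to 3′ on the strand of its gene, read from the RefSeq assembly ASM294v3; positions are those of the lists, made on ASM294v2. The library counts are those of the whole locus, not of the printed stretch. All peaks of tef102 and SPAPB18E9.04C cover their stretch. The peaks of leu1 have only bases 1975222 to 1975252 in common, and those of mae2, act1 and gsf2 have no base common to all. In the first 4 sequences capitals mark annotated coding bases. In gsf2 and SPAPB18E9.04C, whose stretches are coding from end to end, capitals mark instead the 2 copies of the longest exact repeat, 66 and 61 bases.
mae2, chrIII:276260-276559, minus strand, 33 libraries: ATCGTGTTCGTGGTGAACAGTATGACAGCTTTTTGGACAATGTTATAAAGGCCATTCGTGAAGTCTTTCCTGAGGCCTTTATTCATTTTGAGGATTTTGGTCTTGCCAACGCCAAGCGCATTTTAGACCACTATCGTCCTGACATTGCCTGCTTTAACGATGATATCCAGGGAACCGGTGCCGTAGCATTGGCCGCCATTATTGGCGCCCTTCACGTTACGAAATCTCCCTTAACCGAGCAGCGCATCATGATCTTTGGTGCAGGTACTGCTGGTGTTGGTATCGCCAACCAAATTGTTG
act1, chrII:1476504-1476803, minus strand, 13 libraries: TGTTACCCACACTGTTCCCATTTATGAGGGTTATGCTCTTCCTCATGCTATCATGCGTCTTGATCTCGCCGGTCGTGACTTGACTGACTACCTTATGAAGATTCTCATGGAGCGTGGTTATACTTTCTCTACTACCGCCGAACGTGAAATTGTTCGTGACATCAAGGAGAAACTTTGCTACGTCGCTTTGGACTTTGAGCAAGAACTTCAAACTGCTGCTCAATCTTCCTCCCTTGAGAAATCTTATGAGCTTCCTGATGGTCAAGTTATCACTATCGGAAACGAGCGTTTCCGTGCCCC
leu1, chrII:1975095-1975394, minus strand, 13 libraries: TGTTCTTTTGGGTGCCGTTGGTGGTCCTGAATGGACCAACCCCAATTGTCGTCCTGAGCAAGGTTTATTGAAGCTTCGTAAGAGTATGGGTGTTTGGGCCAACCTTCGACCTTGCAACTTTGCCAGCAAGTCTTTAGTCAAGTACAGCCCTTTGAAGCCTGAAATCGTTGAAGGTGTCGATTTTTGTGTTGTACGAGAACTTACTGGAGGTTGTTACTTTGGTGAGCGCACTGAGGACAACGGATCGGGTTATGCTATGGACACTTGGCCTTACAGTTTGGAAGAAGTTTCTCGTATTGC
tef102, chrI:4095839-4095987, plus strand, 16 libraries: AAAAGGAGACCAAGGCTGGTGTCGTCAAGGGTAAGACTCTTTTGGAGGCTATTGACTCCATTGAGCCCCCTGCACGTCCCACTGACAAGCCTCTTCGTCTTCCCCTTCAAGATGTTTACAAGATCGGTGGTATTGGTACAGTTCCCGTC
gsf2, chrIII:962452-962751, minus strand, 19 libraries: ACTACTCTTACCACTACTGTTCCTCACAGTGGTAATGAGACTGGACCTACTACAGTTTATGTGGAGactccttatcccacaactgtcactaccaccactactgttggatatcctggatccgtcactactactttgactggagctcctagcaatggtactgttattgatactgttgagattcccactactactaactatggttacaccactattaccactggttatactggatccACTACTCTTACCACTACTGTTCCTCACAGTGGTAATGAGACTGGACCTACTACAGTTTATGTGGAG
SPAPB18E9.04C, chrI:3984233-3984482, minus strand, 16 libraries: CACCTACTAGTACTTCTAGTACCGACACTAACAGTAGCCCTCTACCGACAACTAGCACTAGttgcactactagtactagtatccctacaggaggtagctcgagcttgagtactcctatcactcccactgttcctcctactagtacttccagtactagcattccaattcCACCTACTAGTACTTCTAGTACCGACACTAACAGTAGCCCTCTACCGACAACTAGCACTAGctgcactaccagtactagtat
The GC content of these stretches was 47.3% in mae2, 46% in act1, 47% in leu1, 51.0% in tef102, 43.7% in gsf2 and 46.4% in SPAPB18E9.04C. Within the SPAPB18E9.04C stretch, 43.1% of 12-base words occurred more than once, and within the gsf2 stretch 38.4%.

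Most short euchromatic peaks came from one batch. The 11 isolates of the second tfs1DN batch held 2427 of them (82.4%), and with their own parent the 12 libraries held 89.6%. The other 62 libraries held 304 peaks, between 0 and 13 each. Within the second batch the counts were 35 in isolate 2, 235 in isolate 3, 219 in isolate 4, 127 in isolate 5, 214 in isolate 6, 106 in isolate 7, 241 in isolate 8, 502 in isolate 9, 238 in isolate 10, 294 in isolate 11 and 216 in isolate 12. The parent of these isolates, which carries no tfs1DN, held 213, inside the range of its isolates. By contrast, isolates 1 and 13, the first batch, held 4 and 6.

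The other groups had few short peaks and overlapped one another. The vector isolates held 4 to 11 (median 7, 7.13 ± 1.92 SD, n = 15), the seb1-1 isolates 3 to 13 (median 7, 7.20 ± 3.14 SD, n = 15) and the ago1 isolates 0 to 10 (median 2.5, 2.92 ± 2.75 SD, n = 12). Of the remaining parents, that of the vector isolates held 10, that of the seb1-1 isolates 9, those of the 3 ago1 sets 1, 7 and 1, and that of isolates 1 and 13 none, its list being empty. The 9 input libraries held 6 short peaks in all, at most 2 each. The pfs2-11 libraries held 4 and 3, and both pfs2 wild-type libraries held 2.

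**Figure D1:**
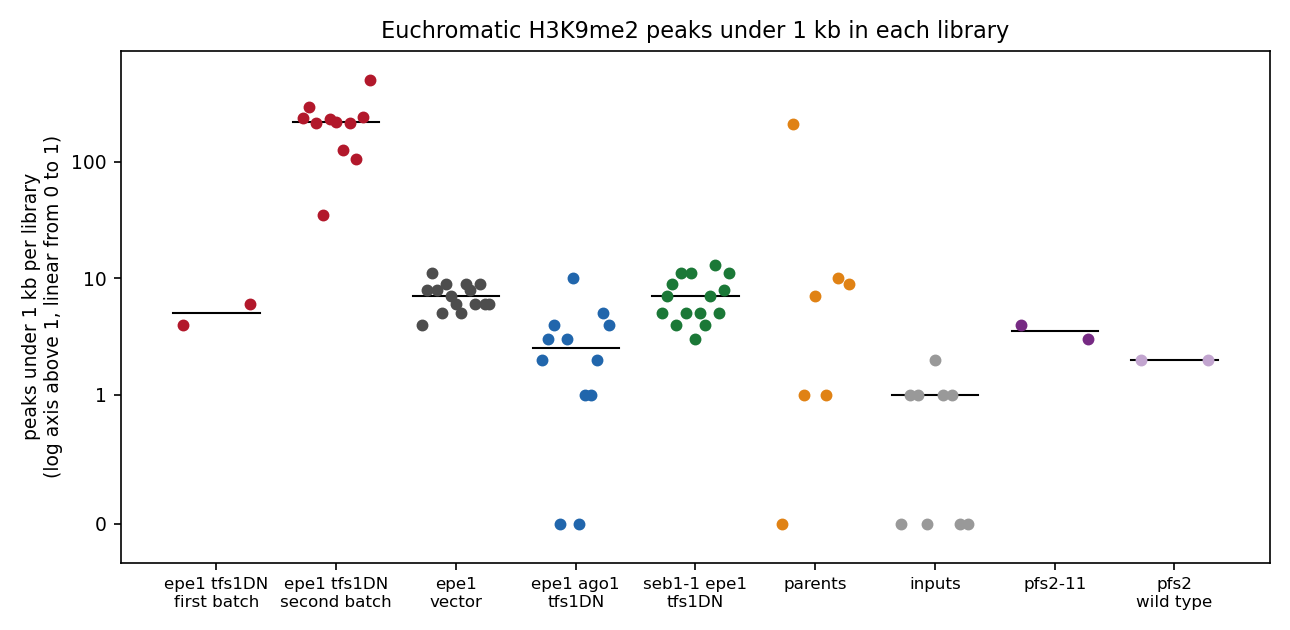
Number of euchromatic H3K9me2 peaks under 1 kb in each library (vertical axis, logarithmic above 1 and linear from 0 to 1), by group (horizontal axis). Each point is 1 library and each bar a group median. The 11 isolates of the second tfs1DN batch (35 to 502) and 1 parent (213) stand above all other libraries (0 to 13).

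Across all 13 isolates, epe1 tfs1DN had 187 ± 136 short peaks (SD) against 7.13 ± 1.92 in the vector group, a difference of 180 (permutation test, two-sided, adjusted p = 5.0e-05 over 5 comparisons). This difference came from the second batch alone (213.5, permutation test, adjusted p = 5.0e-05). In the first batch the difference was -2.13 (2 isolates against 15, exact permutation test, adjusted p = 0.239). Without peaks that overlapped a peak of the isolate's own parent it was 86.2, and with a fold of at least 3.5, a limit that sets folds of different groups against each other, it was 23.5. The ago1 isolates had 4.22 fewer short peaks than the vector isolates (permutation test, adjusted p = 2.5e-04), and 0.60 fewer once peaks of the own parent were left out (adjusted p = 0.729). For seb1-1 against vector the difference was 0.07 (permutation test, adjusted p = 1), and its direction and call turned with the choice of peaks. By permutation test it was -0.80 at a fold of at least 3.5 (adjusted p = 0.0076), 2.60 without peaks near the sites that the study lists (adjusted p = 0.0086) and 2.00 with peaks less than 1 kb apart merged (adjusted p = 0.0173). Against epe1 tfs1DN, the ago1 group was lower by 185 (adjusted p = 1.3e-04) and the seb1-1 group by 180 (adjusted p = 5.0e-05), both permutation tests over isolates. Set against the first tfs1DN batch alone, these differences were -2.08 (adjusted p = 0.371) and 2.20 (adjusted p = 0.561).

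Fold here is the authors' read coverage over the peak divided by their coverage of its chromosome, and the lists start at 3.00. The short peaks stayed close to that floor: their median fold was 3.17 and their highest 5.19, 959 of them (32.6%) were under 3.1, and 39 reached 4. Median fold was 3.18 in the second tfs1DN batch, 3.11 in the vector group, 3.12 in the seb1-1 group and 3.1 in the ago1 group. The lists give depth only as chromosome coverage, which ran from 1.70 to 88.7 over all libraries. In all vector and seb1-1 isolates this average is no plain mean of coverage, so there it need not follow depth. Within the second batch, chromosome coverage and number of short peaks were inversely correlated before adjustment (n = 11, Pearson's r = -0.73, permutation p = 0.0257, adjusted p = 0.103 over 4 groups, Spearman's rho = -0.44, p = 0.185). Without isolates 2 and 9, the farthest from the median coverage, r was -0.23, so the relation rested on them. In the vector, ago1 and seb1-1 groups r was -0.10, -0.11 and 0.24 (permutation p = 0.714, 0.714 and 0.385).

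Short peaks recurred at fixed places. Where they overlapped, they were merged into 712 loci, of which 283 (39.7%) were found in 1 library, 237 in at least 5 and 71 in at least 10. Of the loci, 661 (92.8%) held a peak of the second tfs1DN batch or its parent and 84 a peak of another library, with 33 in common (4.99% of the former and 39.3% of the latter). In the second batch parent 201 loci were occupied, and 188 of these were occupied in at least 1 of its isolates and 119 in at least 6. As a share of peaks rather than loci, 52.9% of the short peaks of second-batch isolates overlapped a peak of the parent, compared with 63.6% in the vector, 63.0% in the seb1-1 and 31.4% in the ago1 group. Isolate 9, which had the most peaks, alone held 195 loci seen in no other library. Few short peaks overlapped a peak of the matched input: 6 in the second batch, 1 in the vector group, 0 in the seb1-1 group and 4 (11.4%) in the ago1 group.

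The overlap of loci was uneven between groups. The vector group had 44 loci, the seb1-1 group 23 and the ago1 group 17, against 651 in epe1 tfs1DN. Between the seb1-1 and epe1 tfs1DN groups 12 loci were shared (52.2% and 1.84% of each), between vector and epe1 tfs1DN 17 (38.6% and 2.61%), and between vector and seb1-1 4 (9.09% and 17.4%). The ago1 group shared 5 loci with epe1 tfs1DN (29.4% and 0.768%), 4 with vector (23.5% and 9.09%) and none with seb1-1. Many of the loci outside the second batch were the short form of a region that was longer elsewhere: 54.5% of the vector loci, 64.7% of the ago1 loci and 47.8% of the seb1-1 loci held a peak of 1 kb or more in another isolate group, compared with 5.68% for epe1 tfs1DN. Within 1 kb of one of 82 heterochromatin-prone sites that the study lists, or within 10 kb of constitutive heterochromatin, lay 70.1% of the vector, 56.5% of the seb1-1 and 57.1% of the ago1 peaks, but 8.08% of those of the second batch.

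In the second batch 26 loci held a short peak in 10 or 11 of the 11 isolates. A short peak was present in all 11 isolates over act1 (actin), shm1 (serine hydroxymethyltransferase), por1 (the mitochondrial outer membrane porin) and pcs60. Of these, the act1 and por1 loci are at heterochromatin-prone sites that the study lists. Over act1 the fold ran from 3.27 to 3.99 (median 3.80) in the 11 isolates and was 3.5 in their parent. Over shm1 it ran from 3.05 to 3.73 (median 3.27, parent 3.24) and over por1 from 3.08 to 3.82 (median 3.55, parent 3.37). At these 3 loci the parent value lay within the range of its isolates. Over pcs60 the isolates listed folds of 3.1 to 3.45 and the parent a longer peak of 1004 bp at 3.83. A further 22 loci were occupied in 10 of the 11 isolates, among them those of gpm1 (phosphoglycerate mutase), gpd3 (glyceraldehyde-3-phosphate dehydrogenase), psu1 and bgl2 (cell wall proteins), eca39 (branched-chain amino acid aminotransferase), snz1 (pyridoxine synthesis), rpl801 (a ribosomal protein), dsk2 (a ubiquitin receptor), isp7, lsb1, nep2 and SPBC8D2.18C. Of the 26 loci, 24 were also short peaks in the parent, and 1, act1, had a peak outside the batch. Isolate 2, with the fewest peaks, was the one without a peak at psu1, bgl2, snz1, eca39 and lsb1.

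**Figure D2:**
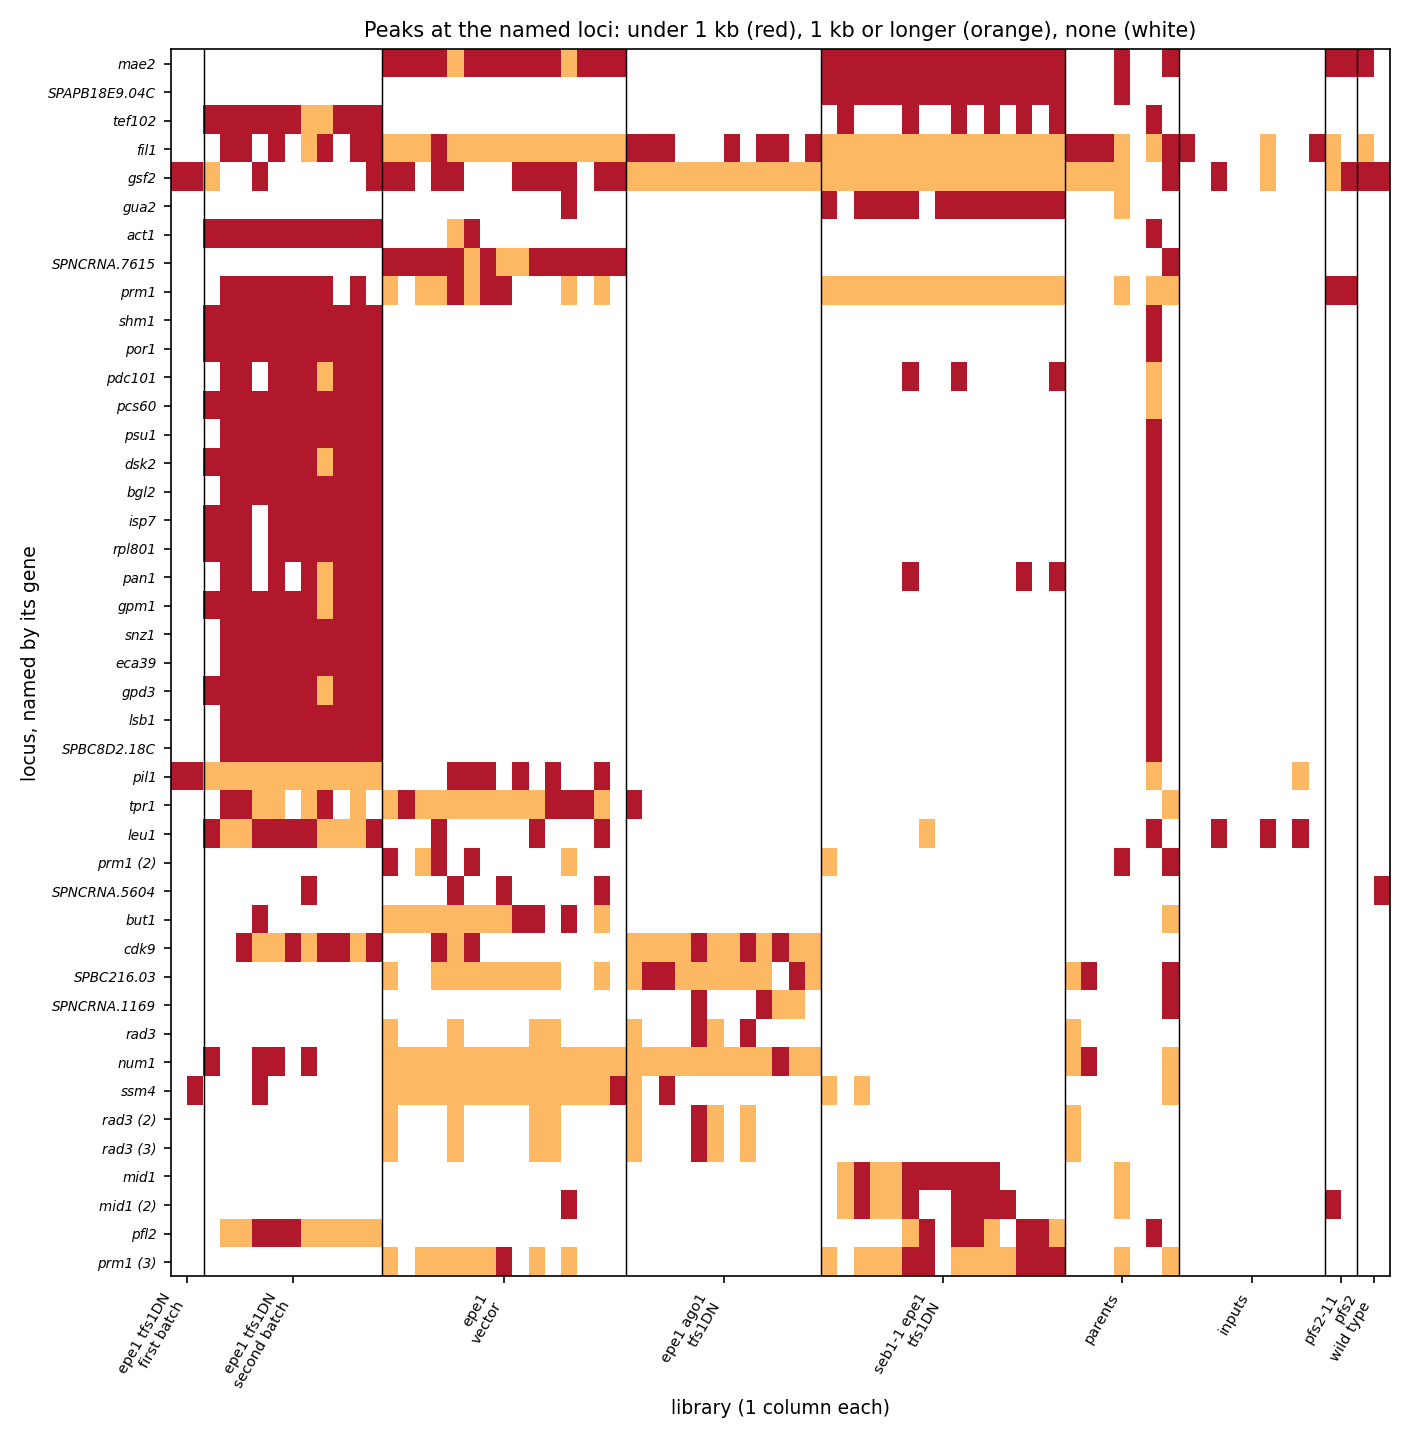
Presence of a peak at each of 43 named loci (rows, by gene; a gene with several loci is numbered) in each of 75 libraries (columns, by group). Red marks a peak under 1 kb, orange a peak of 1 kb or longer and white no listed peak. Of the 25 loci in most isolates 21 held a short peak of the second tfs1DN batch, and 16 of these are also red in the column of that batch's parent. The last of the 25 came from a tie of 26 loci with 10 isolates. That tie was cut by number of libraries, which counts parents, and then by genome order.

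Outside epe1 tfs1DN the locus in most isolates was mae2, the malic enzyme gene: 13 of 15 vector isolates (fold 3.17 to 4.71, median 4.28) and 15 of 15 seb1-1 isolates (3.06 to 3.62, median 3.41). The mae2 locus is at one of the heterochromatin-prone sites that the study lists. The other 2 vector isolates had slightly longer peaks there, 1007 and 1008 bp. The locus was also occupied in the vector parent (3.67), the seb1-1 parent (3.60), both pfs2-11 libraries (3.26 and 3.46) and 1 pfs2 wild-type library (3.03). It was listed in none of the 13 epe1 tfs1DN and 12 ago1 isolates nor in an input. The non-coding RNA gene SPNCRNA.7615 had a peak in all 15 vector isolates, 12 short ones of 952 to 997 bp (fold 3.07 to 5.19) and 3 of 1002 to 1009 bp (5.81 to 6.58), and in the vector parent (3.12), and in no other library.

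Of the 23 seb1-1 loci 12 were shared with epe1 tfs1DN. SPAPB18E9.04C, whose repeat is shown above, held a short peak in 15 of 15 seb1-1 isolates (fold 3.04 to 3.54, median 3.42) and in their parent (3.17), and in no other list. gua2, the GMP synthase gene, held one in 13 of 15 (3.01 to 3.5, median 3.21) and in 1 vector isolate at 3.05, with a peak of 1209 bp in the seb1-1 parent. The gua2 locus lies within 10 kb of constitutive heterochromatin. tef102, which encodes the elongation factor eEF1A, held a short peak in 6 seb1-1 isolates (3.03 to 3.27) and in 9 epe1 tfs1DN isolates (3.1 to 4). Here 89.6% of 50-base words in the locus occurred more than once in the genome, since tef101 and tef103 are near-identical copies, and reads cannot be placed among the 3 genes with certainty. Such words occurred in 33 of the 712 loci and made up most of 17, among them gsf2 (94.3%), SPAPB18E9.04C (57.7%) and the pfl2 locus in most isolates (54.6%), where reads likewise cannot be placed with certainty. In SPAPB18E9.04C and gsf2 repeats within the gene itself count among them. pdc101 (pyruvate decarboxylase) and pan1 (a cortical actin patch protein) held short peaks in 3 seb1-1 isolates each, at folds up to 3.08, and in 8 and 7 epe1 tfs1DN isolates.

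Some loci were also occupied in input DNA, which was not immunoprecipitated. leu1, the isopropylmalate dehydrogenase gene, was listed in 3 of 9 inputs: those of the second tfs1DN batch (fold 3.90), of the third ago1 set (3.09) and of the seb1-1 group (3.56). In the isolates it carried short peaks in 6 epe1 tfs1DN (3.37 to 4.23) and 3 vector isolates (3.06 to 3.76), with longer peaks in another 5 epe1 tfs1DN isolates (4.56 to 8.73). The second-batch parent held a short peak there at 3.85. The input values lay within the range of the short isolate peaks. A place at the 3′ end of fil1, a transcription factor gene, covers 3′ untranslated sequence and bases outside any annotated gene. It was listed in the inputs of the first ago1 set (3.27), the vector group (4.39) and, as a longer peak, the seb1-1 group (9.27). Short peaks lay there in 7 ago1 isolates (3.1 to 3.43) and 6 epe1 tfs1DN isolates (3.09 to 3.88), while 14 vector isolates (5.71 to 14.9) and 15 seb1-1 isolates (17.9 to 38.6) listed peaks of 1007 to 1073 bp. gsf2, a galactose-specific flocculin gene with internal repeats, was listed in the input of the third ago1 set (71 bp, fold 3.01) and, longer, in that of the seb1-1 group (4.42). Its short peaks were in 10 vector isolates (3.04 to 3.39) and 4 epe1 tfs1DN isolates (3.06 to 3.35), and it was 1 kb or longer in all 12 ago1 and all 15 seb1-1 isolates. The part of the input signal in these results was not tested.

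In the second batch and in seb1-1 the peaks lay within genes. Of the 712 loci, 703 lay on a protein-coding gene (559 different genes), 8 on a non-coding RNA gene only and 1 on no annotated gene. Coding sequence made up 96.9% of the bases under short peaks of second-batch isolates, 97.9% in their parent and 99.2% in seb1-1 isolates, while it made up 58.8% of the euchromatic genome. In the vector group coding sequence made up 68.3%, with 18.9% in non-coding RNA genes alone and 9.25% between genes. In the ago1 group it made up 51.5%, with 25.4% in 3′ untranslated regions and 14.2% between genes, a part that holds 8.91% of the euchromatic genome, and in the 6 input peaks 47.3%. Of the 35 ago1 peaks 9 lay at the fil1 locus, which holds no coding sequence and was also listed in inputs. This locus adds both to the 3′ untranslated share and to the share between genes. Euchromatic peaks of 1 kb or longer were 79.6% coding. Outside the excluded regions none of 116 tRNA genes and none of 36 rRNA genes overlapped a short peak, beside 12.1% of 4927 protein-coding genes.

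Tested per isolate, with at least 5 short peaks each, the coding share was 96.1% ± 3.99 (SD, n = 12) in epe1 tfs1DN and 69.4% ± 12.99 (n = 14) in vector, a difference of 26.7 percentage points (permutation test, two-sided, adjusted p = 4.0e-05 over 4 comparisons). In seb1-1 it was 99.5% ± 1.90 (n = 12), 30.1 points above vector (permutation test, adjusted p = 4.0e-05, from the smallest p that 100000 permutations can give). The seb1-1 isolates, at 93.4% to 100%, and the vector isolates, at 51.8% to 95.4%, overlapped only slightly. Isolates of a group share loci: 12 vector isolates and their parent held a short peak at SPNCRNA.7615, where no base is coding. The part of such shared loci in both differences was not tested. The only isolate of the first tfs1DN batch with enough peaks had 83.8%, lower than all 11 of the second batch (94.6% to 98.3%).

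**Figure D3:**
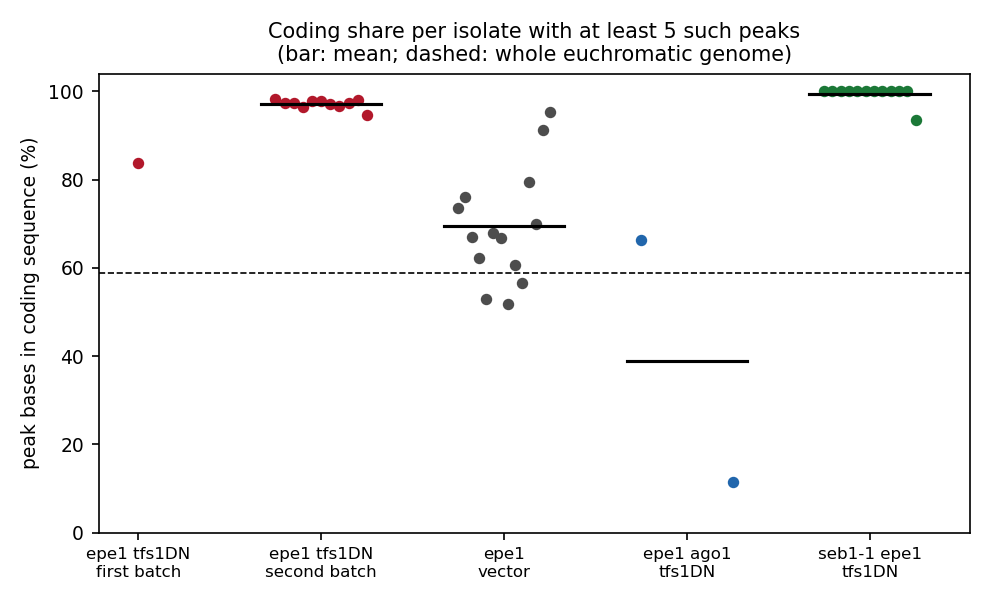
Percent of bases under short euchromatic peaks that lie in annotated coding sequence (vertical axis) for each isolate with at least 5 such peaks (points), by group; bars are means and the dashed line is the euchromatic genome at 58.8%. Second-batch tfs1DN and seb1-1 isolates sit at 93.4% or above, and vector isolates spread from 51.8% to 95.4%.

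Along the gene, peak midpoints of the second batch and of seb1-1 gathered in the middle. In the second batch 79.1% of midpoints in protein-coding genes lay between 30% and 70% of the gene, with 0.572% in the first 10% of the gene and 0.458% in the last 10%, and in seb1-1 isolates 75.9% lay in that middle range. In vector and ago1 isolates 56.8% and 46.4% did, and 14.3% of the 28 ago1 midpoints lay in the first 10% of the gene and 14.3% in the last 10%. These shares count a recurrent place once per isolate. The 108 seb1-1 peaks came from 23 loci, the 107 vector peaks from 44 and the 35 ago1 peaks from 17. Of the ago1 peaks 9 lay at the fil1 locus, whose median relative position was 0.940. The mean relative position per isolate, with 0 as gene start and 1 as gene end, was 0.468 ± 0.036 (SD, n = 12) in epe1 tfs1DN, 0.492 ± 0.045 (n = 12) in seb1-1 and 0.481 ± 0.098 (n = 14) in vector. The differences from vector, -0.013 and 0.011, were smaller than the spread between isolates (permutation tests, adjusted p = 0.717 for both).

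**Figure D4:**
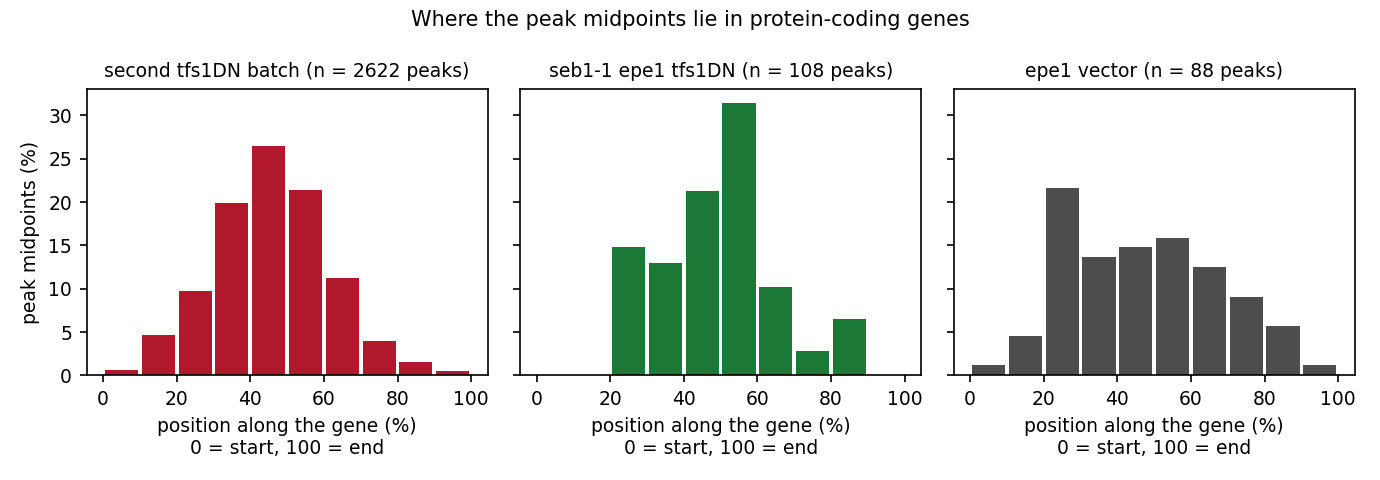
Percent of short-peak midpoints (vertical axis) in steps of 10% along the protein-coding gene they lie in, from start to end in the direction of transcription (horizontal axis), for the second tfs1DN batch with its parent (2622 midpoints), the seb1-1 isolates (108) and the vector isolates (88). The first and last steps hold 0.572% and 0.458% of second-batch midpoints.

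Base composition differed between the groups as well. In windows of 500 bp centred on the peaks, median GC content was 45.8% in the second tfs1DN batch with its parent and 45.0% in seb1-1 isolates, against 40.4% in vector isolates, 35.4% in ago1 isolates and 36.2% over the whole euchromatic genome. Windows above the genome's 90th percentile (42.2% GC) made up 87.1% of second-batch peaks, 62.0% of seb1-1, 29.9% of vector and 8.57% of ago1 peaks. Here too a recurrent place counts once per isolate, and 9 of the 35 ago1 peaks lay at the fil1 locus (31.0% GC). The mean GC content per library ran from 44.9% to 47.4% in second-batch isolates and from 36.8% to 42.1% in vector isolates, so these did not overlap. In the seb1-1 group it ran from 41.7% to 48.6% and in the ago1 group from 29.1% to 40.3%. Euchromatic peaks of 1 kb or longer had median library GC contents of 46.6%, 35.9%, 40.2% and 36.9% in the second-batch, vector, seb1-1 and ago1 isolates.

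Whole genes were compared in the same way. When the 4927 euchromatic protein-coding genes were ranked by the GC content of their coding sequence and cut into 10 equal bins, the share with a second-batch midpoint was 0.406% in the lowest bin (24.4% to 36.2% GC), 29.6% in the bin below the highest and 50.7% in the highest (44.3% to 54.9% GC). For vector midpoints it was 1.42% in the lowest bin and 1.01% in the highest. Median coding GC was 44.1% over the 537 genes with a second-batch midpoint, 43.5% over 21 seb1-1, 40.7% over 25 vector and 40.4% over 12 ago1 genes, and 39.7% over all genes. Median coding length was 1539 bp over the 558 genes with any short-peak midpoint, 537 of them in the second batch, and 1146 bp over all genes. Within its gene, the peak was richer in GC than the whole coding sequence for 61.7% of second-batch and 65.7% of seb1-1 peaks, and for 30.2% of vector and 28.6% of ago1 peaks. These are shares of peaks, so a recurrent place counts once per isolate. What GC content and expression level contribute to these peaks was not tested.

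**Figure D5:**
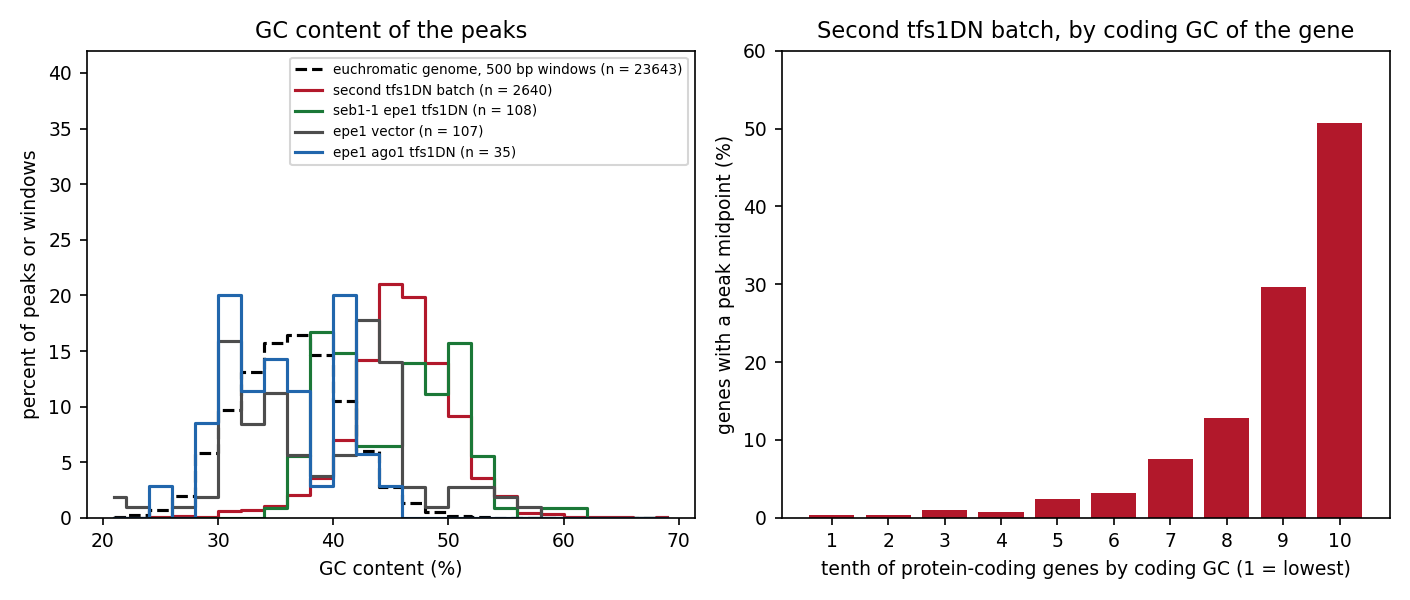
Left, distribution of GC content (horizontal axis, percent) of short euchromatic peaks by group (solid lines, percent of peaks) and of 500 bp windows of the euchromatic genome (dashed). Right, percent of protein-coding genes with a midpoint of a second-batch short peak, in 10 bins of coding GC content, from 0.406% in the lowest to 50.7% in the highest bin.

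Gene groups are described by counts of members with a short peak in the second tfs1DN isolates, beside 565 of 5113 protein-coding genes in all (11.1%). These groups are not a trait of tfs1DN isolates alone. Over all parents, which carry no tfs1DN, 207 genes had a short peak. Among them were 10 genes of glycolysis and fermentation, 3 chaperone, 8 amino acid and one-carbon, 6 translation factor, 4 fatty acid and sterol and 14 ribosomal protein genes. Of 19 glycolysis and fermentation genes 15 had one, among them gpm1, gpd3 and fba1 (aldolase) in 10 isolates each, tdh1 in 9 and pdc101 in 8, with folds up to 4.22, and hxk2 (hexokinase) in 1. tpi1 (triosephosphate isomerase) had none, and eno102 and pdc102 lie in the excluded regions. The pdc101 locus lies within 10 kb of an excluded chromosome end. Of 13 chaperone genes 10 had one, led by hsp104 in 9 isolates and cdc48 in 8, whereas bip1 and hsp16 had none. Of 21 genes of amino acid and one-carbon metabolism 14 had one, with ilv5, gln1 (glutamine synthetase) and gdh1 (glutamate dehydrogenase) in 9 isolates each. Of 15 translation factor genes 9 had one, including the 3 eEF1A genes and tef3 (elongation factor 3) in 9 isolates each. Reads cannot be placed with certainty among the eEF1A genes, nor at eft201 and eft202, which are also among the 9. From 78.9% to 100% of 50-base words in these loci occurred more than once in the genome, so the 9 are not separate hits. For fatty acid and sterol synthesis it was 6 of 11, with fas1 (fatty acid synthase) and erg11 in 9 isolates each.

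Cytosolic ribosomal protein genes, which are short, had a short peak in 45 of 139 cases (32.4%), with rpl801 and rpl402 in 10 isolates each. Of 10 cortical actin and eisosome genes 5 had one in the second batch. pil1, which encodes the eisosome core protein, was instead a peak of 1123 to 1537 bp in all 11 of those isolates (fold 4.53 to 7.31), of 1350 bp in their parent (5.88) and of 1022 bp in their input (3.81). It was a short peak in isolates 1 and 13 and in 6 vector isolates (3.04 to 3.11). Of 11 genes for the plasma membrane pump and the cell wall 4 had one: psu1 and bgl2 in 10 isolates, pma1 (the proton pump) in 7 and pma2 in 2. The glucan synthase genes bgs1, bgs3 and bgs4 had none.

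The other lists lay near or above the 11.1% of all genes, or were too small to be read against it. None of 8 hexose transporter genes and none of 10 RNAi genes, ago1, dcr1 and rdp1 among them, carried a short euchromatic peak in any of the 75 lists, although ght3 and ght7 lie in the excluded regions, as does rpb1. Of 12 RNA polymerase II subunit genes only rpb2 had one (8.33%), in 2 isolates, and of 10 genes of the Clr4 complex and HP1 proteins only clr4 (10%), in 1 second-batch and 1 seb1-1 isolate at folds up to 3.08. Of 18 genes of purine, pyrimidine and deoxynucleotide synthesis 4 had one (22.2%), in 1 or 2 isolates each. Of 10 elongation and termination factor genes 4 had one (40%): tfs1 and mlo3 in 3 isolates each, seb1 in 2 and spt5 in 1. The introduced construct carries sequence of tfs1 and nmt1, and of the leu1 region for the pDUAL vector. At these genes short peaks were listed in 3, 1 and 6 second-batch isolates. The second-batch parent, which carries no tfs1DN, also held a short peak at leu1 (fold 3.85), as did 3 vector isolates and 3 inputs. At tfs1 and nmt1 no parent or input held one. The part of the construct in these peaks was not tested.

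Among 14 meiotic genes silenced by RNA elimination 6 had a short peak in the second batch: mcp7 in 8 isolates, num1 (also called mcp5) in 4, and ssm4, mei4, mug8 and mug9 in 3 each. Short here did not mean specific to that batch, since num1 carried peaks of 2213 to 13660 bp in all 15 vector isolates and ssm4 peaks of 2110 to 7068 bp in 14. In the ago1 group num1 was longer than 1 kb in 11 of 12 isolates and short in 1. mei4, the transcription factor gene of meiosis, held short peaks in 3 seb1-1 isolates too.

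To ask which genes carried a peak of any length in more or fewer isolates, Fisher's exact tests were run per gene and adjusted over all genes with a peak in either group. The genes below all carry a short euchromatic peak in some list, and that choice favours a difference, so their counts are given beside those over all genes. For epe1 tfs1DN against vector, 339 of 980 such genes were in more isolates and 18 in fewer at adjusted p under 0.05, while 23.4% of all 1582 tested genes were called higher and 11.6% lower. but2, clr5 (a silencing factor at the mating-type locus), dsk2, eft201 (elongation factor eEF2), ent1 (epsin), glt1 (glutamate synthase), gpd3, gpm1, lsd90 and mtl2 (a cell wall sensor) were each in 11 of 13 epe1 tfs1DN and 0 of 15 vector isolates (Fisher's exact test, adjusted p = 4.4e-05). More genes tie at this p, and those named come first by name alone. At eft201 reads cannot be placed with certainty, as 86.5% and 90.7% of 50-base words in its loci are repeated in the genome. mae2 and SPNCRNA.7615 were in 0 and 15 (Fisher's exact test, adjusted p = 9.2e-07), but1 in 1 and 13 (adjusted p = 5.1e-04), and num1 and ssm4 in 4 and 15 (adjusted p = 5.6e-04). These last 3 directions turned with the choice of peaks. With short peaks alone the differences were 24.1 percentage points of isolates for num1 and 17.4 for ssm4, and without own-parent peaks 30.8 for both and 7.69 for but1, none of them called. Without peaks that overlapped one of the own parent, 55 genes were called in place of 357, and with a fold of at least 3.5, 78.

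For the ago1 group against vector, 1 of 78 such genes was in more isolates and 12 in fewer, beside 1.24% higher and 15.9% lower of all 646 tested genes. The gene in more isolates was the non-coding SPNCRNA.5200, in 12 of 12 ago1 and 3 of 15 vector isolates (Fisher's exact test, adjusted p = 7.0e-04). mae2 and SPNCRNA.7615 were in 0 of 12 and 15 of 15 (adjusted p = 3.7e-06), but1 in 0 and 13 (adjusted p = 1.4e-04), ssm4, a dynactin subunit gene of meiosis, in 2 and 15 (adjusted p = 1.6e-04), and tpr1, a Paf1 complex subunit gene, in 1 and 14 (adjusted p = 2.0e-04), all by Fisher's exact test. With own-parent peaks left out 0 of 64 such genes were called by Fisher's exact test and 18 had an unadjusted p under 0.05, and the differences at ssm4 and tpr1 turned to 16.7 and 8.33 percentage points.

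For the seb1-1 group against vector, 6 of 96 such genes were in more isolates and 22 in fewer, beside 11.5% higher and 13% lower of all 668 tested genes. SPAPB18E9.04C was in 15 of 15 seb1-1 and 0 of 15 vector isolates (Fisher's exact test, adjusted p = 2.5e-07), gua2 in 13 and 1 (adjusted p = 1.4e-04), mid1, an anillin-like gene of the medial ring, in 11 and 1 (adjusted p = 0.0024), and pfl2, of the flocculin family, in 8 and 0 (adjusted p = 0.0096). Of these, gua2 and mid1 have their peaks within 10 kb of constitutive heterochromatin, beside a centromere. tef102, in 6 and 0, did not pass (adjusted p = 0.0615). In the other direction cdk9 (the P-TEFb kinase), mcp7, num1 and ubp8 (the SAGA deubiquitinase) were in 0 and 15 (Fisher's exact test, adjusted p = 2.5e-07). An overlap of 1 base counts here, and cdk9 adjoins mei4 as ubp8 adjoins mcp7. At the cdk9 locus in most isolates, 2 vector isolates had a short peak and 1 a longer one. Counting short euchromatic peaks alone, 6 genes were called, and without own-parent peaks 2. For gua2 and mid1 the difference turned to -6.67 percentage points of isolates in the latter case, since the parent carried both peaks.

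The groups also differed in where on the chromosomes their short peaks lay. In the second batch with its parent 45.7%, 37.2% and 17.1% of peaks were on chromosomes I, II and III, which hold 45.0%, 35.8% and 19.2% of the euchromatic genome. In the seb1-1 group 63.9% were on chromosome I, in the ago1 group 51.4% on chromosome II and in the vector group 44.9% on chromosome III. In the seb1-1 and vector groups a few loci carried much of the count: SPAPB18E9.04C and gua2 on chromosome I, in 15 and 13 isolates, for seb1-1, and mae2, SPNCRNA.7615 and gsf2 on chromosome III, in 13, 12 and 10 isolates, for vector. The 18 ago1 peaks on chromosome II fell on 9 loci, none in more than 3 isolates, and 9 of the 15 on chromosome III lay at fil1, in 7 isolates.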

How the data were processed

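Peak lists of 75 H3K9me2 ChIP-seq libraries were analysed; 5 further samples, RNA polymerase II profiles, were not analysed here. The authors trimmed adaptor sequence, dropped reads shorter than 20 nt, used Bowtie for alignment and smoothed the aligned reads over 1 kb; the submitters' processing notes also name SAMtools, bedtools and the build ASM294v2, and versions are not given in the sources used here. Peaks were listed per library, without pooling. The deposited signal is read coverage averaged by the authors over each peak and over its chromosome, neither scaled between samples nor corrected for input, and fold is their ratio, used as a description. In 36 lists, all vector and seb1-1 isolates among them, the peaks hold more coverage than the chromosome average allows, so that average is no plain mean there. No second-batch tfs1DN or ago1 isolate is among these 36. No test compared fold levels between groups, but every listed peak had passed a fold of 3.00. All comparisons of peak counts and of genes with a peak therefore carry this limit. The alternative with a fold of at least 3.5 selects peaks by fold once more and carries it too.

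Peaks were placed on the RefSeq genes of ASM294v3 and merged into loci where they overlapped by 1 base or more; a locus takes the name of the protein-coding gene with most bases under it. Where genes overlap, as prm1 and lys1 do, only 1 of them gives the name. Isolates were compared by permutation (100000 resamples, or exact) and genes by Fisher's exact test over all genes, with Benjamini-Hochberg adjustment, in Python 3.11.15 with numpy 2.4.6, pandas 2.3.3 and SciPy 1.17.1, and tested on simulated data. Members, gene lists and tests were chosen with earlier results of these data known. Named are the loci in most isolates, overall and per group, those in inputs, list genes and the genes with the smallest p. Alternatives concerned length, fold, input, parent and curated-site filters, merging, medians, batches, isolate numbers as a block, and isolates left out. The list of the parent of isolates 1 and 13 is empty; isolate 12 was given the parent and input labelled for isolates 2 to 11. 1 of the sequences is not reported here.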

Additional observations from a re-analysis of the deposited data

Results flagged for a closer look

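A parent and an input library stood apart by their number of short euchromatic peaks. The parent of the second tfs1DN batch had 213, while the other 6 parents, of 3 genotypes, had 0 to 10; the gap took up 0.953 of the range against a limit of 0.568. The input of the third ago1 set had 2, while the other 8 inputs had 0 or 1, a gap of 0.500 of the range against a limit of 0.493. About 1 group in 20 is marked this way by chance where values are continuous and drawn alike. Tied input counts and parents of 3 genotypes need not keep to that rate.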

How the results depend on the processing

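Differences in short peaks per isolate kept direction and call in most alternatives. Exceptions among counts were ago1 against vector without own-parent peaks (-0.60), and, with the first tfs1DN batch alone, epe1 tfs1DN against vector (-2.13), ago1 against epe1 tfs1DN (-2.08) and seb1-1 against epe1 tfs1DN (2.20). seb1-1 against vector, 0.07 in the report, was -1.13 under 500 bp, -0.80 at a fold of at least 3.5 (permutation test, adjusted p = 0.0076), -1.89 as a percentage of peaks, 2.60 without curated sites (adjusted p = 0.0086) and 2.00 with peaks less than 1 kb apart merged (adjusted p = 0.0173). Position along the gene for seb1-1 was -0.011 between medians. Leaving out 1 isolate at a time, chosen after seeing the data except for isolate 9 of epe1 tfs1DN, gave -0.348 to 0.367 for seb1-1 against vector, -0.00183 to 0.0201 for its position, 154 to 196 for epe1 tfs1DN and -4.86 to -3.94 for ago1 against vector, and 316 to 358, 13 to 16 and 28 to 30 called genes. Called genes with a short peak numbered 78 (fold at least 3.5) and 55 (own-parent peaks out) in place of 357 for epe1 tfs1DN, 5 (short peaks alone) and 0 (own-parent peaks out, 18 at unadjusted p under 0.05) in place of 13 for ago1, and 6 and 2 in place of 28 for seb1-1. In epe1 tfs1DN against vector num1 and ssm4 turned to 24.1 and 17.4 percentage points with short peaks alone, and num1, ssm4 and but1 to 30.8, 30.8 and 7.69 without own-parent peaks. In ago1 ssm4 and tpr1 turned to 16.7 and 8.33, and in seb1-1 gua2 and mid1 to -6.67, likewise without own-parent peaks. The cause was not tested.

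With the isolate number as a replicate block, 222 genes were called in epe1 tfs1DN against vector, 12 in ago1 and 28 in seb1-1, and the count differences were 180, -4.25 and 0.07. The numbers share no source in the labels: same-numbered isolates correlated at medians of 0.0207, -0.00284 and 0.0408, and 0 of 13, 1 of 12 and 3 of 15 correlated best with their own number. Gene-part tests with at least 10 peaks per isolate were not run, as under 2 vector isolates remained. Depth was known only as chromosome coverage, and peaks under a fold of 3 were not listed.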

Other observations

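At the 3′ end of fil1 the vector, seb1-1 and input peaks were 948 to 1073 bp long. Their fold ran from 3.27 in the input of the first ago1 set to 38.6 in a seb1-1 isolate. The highest peak of each epe1 tfs1DN isolate there ran from 76 to 1006 bp and that of each ago1 isolate from 411 to 963 bp, at folds of 3.09 to 5.19 and 3.1 to 3.43. In these lists the length limit of 1000 bp separated weaker from stronger peaks of one place, as it did at SPNCRNA.7615, where the 12 short vector peaks had folds of 3.07 to 5.19 and the 3 longer ones 5.81 to 6.58, and at mae2, where the 13 short vector peaks, of 432 to 999 bp, had 3.17 to 4.71 and the 2 longer ones 4.97 and 5.25.

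At 1 locus that the naming rule gave to prm1, 8 epe1 tfs1DN isolates listed a short peak (fold 3.06 to 3.46). The place also lies in lys1, a gene of amino acid metabolism, and within 10 kb of constitutive heterochromatin. All 15 seb1-1 isolates had a peak of 1097 to 28219 bp over the same place. Vector isolates held 3 short and 6 longer peaks there, and the parents of the second tfs1DN batch, of the vector isolates and of the seb1-1 isolates listed peaks of 1074, 2631 and 4708 bp. pfl2 held short peaks in 3 epe1 tfs1DN and 5 seb1-1 isolates and longer ones in 7 and 3. In vector isolates the cluster of but1, ssm4 and tpr1 on chromosome I was 1 kb or longer in 9, 14 and 10 isolates and short in 3, 1 and 4.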
